A study of Homo sapiens with 8 samples.

Results

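The RNA of UF1hypo cells was compared with that of their parent line, HCT116, before any further depletion of UHRF1. HCT116 is a human colorectal cancer cell line. UF1hypo is 1 clone of HCT116 in which Cas9-assisted homologous recombination put a drug-resistance cassette in place of an exon on 1 allele of UHRF1, after which the cassette was excised with an adenovirus carrying Cre and single cells were grown out. Both lines had been infected with a lentivirus for a control hairpin (shScr) and kept as stable pools under puromycin, so the groups share the virus, the selection and the control hairpin. The 4 members are the libraries named HCT116 shScr and UF1hypo shScr, 2 of each, out of 8 libraries in the whole study. The other 4 carried a hairpin against UHRF1 (shUHRF1). Of 19942 protein-coding genes matched in the deposited tables, 12856 had a TPM (length-normalized transcripts, scaled to the same total in each library) above 1 in at least 1 of the 4 libraries and were tested. Because a single clone was sequenced, the loss of 1 UHRF1 allele and any other difference between this clone and its parent cannot be told apart.

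UHRF1 is the protein that recognizes hemimethylated DNA behind the replication fork and brings in DNMT1, the maintenance methyltransferase, to copy the methyl marks onto the new strand. When the copying is incomplete, CpG methylation is lost over successive divisions, and genes held silent by it, such as the cancer-testis antigens, can be transcribed. Loss of DNA methylation is also known to let cells transcribe endogenous retroviruses, whose double-stranded RNA is detected by cytosolic sensors that switch on interferon-stimulated genes through a transcription factor complex that contains IRF9. DNA methylation was not measured in these libraries. From methylation arrays, the paper reports that this clone kept most of its overall DNA methylation despite a strongly reduced level of UHRF1 protein.

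The aligned bases of the 4 libraries lay between 5.42 and 7.39 gigabases, and the tables hold no read counts. Pearson's r of log2(TPM + 1) between the replicates was 0.991 in HCT116 shScr and 0.989 in UF1hypo shScr. Markers of colorectal epithelium were present in both lines, and 5 of 6 of them were tested. The 11 leukocyte markers summed to 2.24 to 2.39 TPM in HCT116 shScr and 2.02 to 2.16 TPM in UF1hypo shScr, with PTPRC, MS4A1 and HBB listed at 0 in all 4 libraries. The 5 endothelial markers summed to less than 1 TPM in each library. Of the 7 fibroblast markers, whose sum was 21.2 to 24.0 TPM in HCT116 shScr and 23.0 to 28.9 TPM in UF1hypo shScr, COL1A1 was the one tested and the defining markers PDGFRA, LUM and COL1A2 were listed at 0. The fold change over genes followed the GC content of their transcripts, at a rank correlation (Spearman) of 0.46, where the points are genes and no replicates. The difference between the 2 UF1hypo shScr libraries followed it as well, with a rho of −0.53, against −0.04 for the 2 HCT116 shScr libraries. Values corrected for GC content and length of the transcripts are therefore given beside gene groups.

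In UF1hypo cells 333 genes were called higher and 122 genes were called lower than in HCT116 cells, which is 2.59% and 0.949% of the genes tested. These shares are the background for the counts of called genes in the lists below. A call required an adjusted p-value below 0.05 in limma (Benjamini-Hochberg) and a log2 fold change, on the log2(TPM + 1) scale, above 1 in either direction. The adjusted p-value alone was below 0.05 in 614 genes and the unadjusted p-value in 2341 genes. The median log2 fold change of all genes tested was −0.05, and 44.6% of the genes had one above 0. Both UF1hypo libraries lay above both HCT116 libraries in 29.1% of the genes tested and below them in 37.2%. An exact permutation test of 2 libraries a side has 0.33 as its smallest two-sided p, so each call rests on the spread shared over genes and groups. In bulk RNA, fewer cells of a type and less RNA per cell cannot be told apart.

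UHRF1 itself (ENSG00000276043.5; GRCh38 chromosome 19, 4903080 to 4962154) was at a TPM of 87.5 and 98.4 in HCT116 shScr and 47.3 and 50.6 in UF1hypo shScr. Both UF1hypo libraries were below both HCT116 libraries, by a log2 fold change of -0.91 (SE 0.22, adjusted p = 0.0545) (SE, standard error), which missed the threshold in the fit of all libraries. The adjusted p-value was 0.000764 when the 4 shScr libraries were fitted alone and 0.00245 after the GC and length correction, and the fold change stayed under the limit for a call in both. Among the 23 tested members of a list of 24 writers, readers and erasers of DNA methylation, 0 were called in either direction. Their median log2 fold change was −0.30, and it was −0.24 after the GC and length correction. Of the 23 genes 18 were below 0, where 44.6% of all genes tested were above 0.

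Other members of the maintenance machinery were not called either. DNMT1, the maintenance methyltransferase, was at a TPM of 176 and 196 in HCT116 shScr and 147 and 162 in UF1hypo shScr, with a log2 fold change of -0.27 (SE 0.15, adjusted p = 0.407). UHRF2, the paralog of UHRF1, was at 36.5 and 34.0 in HCT116 shScr and 22.6 and 20.8 in UF1hypo shScr, with a log2 fold change of -0.68 (SE 0.27, adjusted p = 0.223). DNMT3B, a de novo methyltransferase, was at 37.0 and 38.6 in HCT116 shScr and 20.7 and 23.8 in UF1hypo shScr, with a log2 fold change of -0.74 (SE 0.19, adjusted p = 0.0655). In each of these 3 genes both UF1hypo libraries were below both HCT116 libraries, which held for 37.2% of all genes tested. In none did the adjusted p-value pass the threshold in the fit of all libraries. For DNMT3B it was 0.00107 after the GC and length correction and 0.0036 with the 4 shScr libraries alone. For DNMT1 these adjusted p-values were 0.0456 and 0.0868. The corrected log2 fold changes of DNMT3B and DNMT1, -0.80 and -0.31, stayed under the limit for a call. The demethylating enzymes TET1, TET2 and TET3 had log2 fold changes of -0.49, -0.33 and -0.30 with adjusted p-values of 0.383, 0.546 and 0.487. A list of 23 genes for H3K9 methylation and the HUSH silencing complex had 0 calls and a median of −0.27, which was −0.10 after the correction.

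The 3 genes with the largest rise in UF1hypo cells, IFI27, IFITM1 and IFI6, were effectors of the interferon response, followed by LY6D of the epithelial genes described below. Of 63 listed effectors in the tables, 60 were tested, 45 were called higher and 0 were called lower, against 2.59% and 0.949% of all genes. Their median log2 fold change was 1.81, beside −0.05 over all genes tested. All 60 had both UF1hypo libraries above both HCT116 libraries, against 29.1% of all genes. With the GC and length correction 51 were called higher and the median was 1.93. The list is one of known interferon-stimulated genes and was drawn up with earlier results of these data in view, so its direction is not independent evidence. Leaving out 1 library at a time left between 30 and 33 of the effectors called, with the fewest without HCT116 shScr replicate 2.

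IFI27, a mitochondrial and nuclear envelope protein induced by type I interferon, had the largest change of all genes tested. Its TPM was 4.90 and 2.55 in HCT116 shScr and 1098 and 1196 in UF1hypo shScr, and its log2 fold change was 7.97 (SE 0.27, adjusted p = 2.2e-06). IFITM1, which restricts virus entry at the plasma membrane, was at 2.16 and 2.38 in HCT116 shScr and 283 and 350.3 in UF1hypo shScr, a log2 fold change of 6.59 (SE 0.20, adjusted p = 1.25e-06). IFI6, an inhibitor of flavivirus replication at the endoplasmic reticulum, was at 16.2 and 19.3 in HCT116 shScr and 1721 and 1698 in UF1hypo shScr and changed by 6.52 (SE 0.14, adjusted p = 9.9e-08). These 3 genes were at low to moderate levels in both HCT116 libraries and among the abundant transcripts in both UF1hypo libraries.

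OAS1, a synthetase of the 2′-5′ oligoadenylates that activate RNase L, was at a TPM of 0.513 and 0.117 in HCT116 shScr and 65.0 and 60.8 in UF1hypo shScr, with a log2 fold change of 5.62 (SE 0.21, adjusted p = 2.68e-06). IFI44 was at 0.0763 and 0.237 in HCT116 shScr and 28.3 and 28.7 in UF1hypo shScr and changed by 4.68 (SE 0.28, adjusted p = 5.93e-05). IFIT1, which binds viral RNA that lacks the host's cap methylation, was at 1.5 and 1.63 in HCT116 shScr and 61.5 and 54.8 in UF1hypo shScr and changed by 4.52 (SE 0.32, adjusted p = 0.000145). The groups were separated widely in each, and the spread between the libraries of a group was small beside the difference. ISG15, a ubiquitin-like modifier, was already abundant in HCT116 and rose further, from 222 and 189 to 2054 and 2379, a log2 fold change of 3.43 (SE 0.22, adjusted p = 8.77e-05). IFITM3 rose from 403 and 419 to 1808 and 2163, by a log2 value of 2.26 (SE 0.19, adjusted p = 0.000336). PARP10, a mono-ADP-ribosyltransferase, went from 5.53 and 2.12 to 80.7 and 93.4, a log2 change of 4.28 (SE 0.36, adjusted p = 0.000333). Among the effectors that were not called, PNPT1 and DDX60L had log2 fold changes of 0.16 and 0.24 with adjusted p-values of 0.801 and 0.723.

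Promoters of 6 strongly raised effectors are shown because they hold matches to the core of the interferon-stimulated response element, the DNA motif bound by the interferon-activated complex that contains IRF9. The sequences are RefSeq promoters of GRCh38.p14, written 5′ to 3′ on the strand of the gene, with the match to the core of the element in capitals. The core searched was TTTCNNTTTC or its reverse complement GAAANNGAAA, which covers both strands, in the 250 bases before the start site.
IFI27 (chr14:94110618-94110647, plus strand): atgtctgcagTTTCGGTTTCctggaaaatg
IFI27 (chr14:94110631-94110660, plus strand): cggtttcctgGAAAATGAAAcctatctcat
IFITM1 (chr11:313990-314019, plus strand): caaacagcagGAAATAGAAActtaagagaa
IFI6 (chr1:27672329-27672358, minus strand): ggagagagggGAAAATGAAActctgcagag
IFI6 (chr1:27672288-27672317, minus strand): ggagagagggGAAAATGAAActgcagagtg
IFI6 (chr1:27672266-27672295, minus strand): gcagagtgcaGAAATAGAAActccgacagg
IFI44 (chr1:78649761-78649788, plus strand): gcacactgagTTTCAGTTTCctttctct
IFIT1 (chr10:89392497-89392526, plus strand): ctagctttagTTTCACTTTCccctttcggt
IFIT1 (chr10:89392510-89392539, plus strand): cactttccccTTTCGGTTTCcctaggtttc
ISG15 (chr1:1013374-1013403, plus strand): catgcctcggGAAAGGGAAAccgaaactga
The 3 matches of IFI6 lie within the same short stretch, and the pairs of IFI27 and IFIT1 overlap in the windows printed. A promoter entry existed for 230 of the 333 genes called higher, and 30 of them (13.04%) held the core. It was present in 2.22% of the 10292 tested genes with an entry, in 2 of 105 genes called lower (1.90%) and in 3.07% of all 27305 promoters. Among the interferon effectors called higher it was present in 19 of 34. Among called-higher genes outside the interferon, sensing, JAK-STAT and MHC lists it was present in 6 of 181 (3.31%). A match is a description of these letters and not a measured binding site.

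No interferon ligand reached the level for a test. Of 21 listed interferon ligands in the tables, 0 reached the TPM minimum, and the highest value of any of them in the 4 libraries was 0.77 TPM. IFNA2, IFNA4 and IFNA5 were listed at 0 in all 4 libraries. The 6 interferon receptor genes were tested and 0 were called, with a median log2 fold change of 0.18. IFNAR1, a subunit of the type I interferon receptor, was at a TPM of 15.2 and 16.2 in HCT116 shScr and 14.9 and 12.4 in UF1hypo shScr, and its partner IFNAR2 was at 8.86 and 8.67 in HCT116 shScr and 11.4 and 10.1 in UF1hypo shScr. The log2 fold changes of IFNAR1 and IFNAR2 were -0.19 and 0.27, with adjusted p-values of 0.772 and 0.540.

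The transcription factors downstream of the receptor were higher. In the list of Janus kinases, STATs and interferon regulatory factors 5 of 21 tested genes were called higher and 0 lower. Over all genes these shares were 2.59% and 0.949%. The median of the list was 0.50, which was 0.44 after the correction. IRF9, which gives the complex its DNA contact, was at a TPM of 3.46 and 4.07 in HCT116 shScr and 30.9 and 32.5 in UF1hypo shScr, with a log2 fold change of 2.78 (SE 0.18, adjusted p = 8.36e-05). IRF7, the factor that amplifies type I interferon transcription, was at 17.0 and 14.2 in HCT116 shScr and 128 and 149.6 in UF1hypo shScr and changed by 3.08 (SE 0.23, adjusted p = 0.000167). In both the libraries of a group were close to each other and far from the other group. USP18, which removes ISG15 from its targets and dampens receptor signalling, rose by 2.25 (SE 0.19, adjusted p = 0.000352), and STAT2 by 1.08 (SE 0.15, adjusted p = 0.00467).

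Of 17 tested sensors and adaptors for foreign nucleic acid, 6 were called higher and 0 lower, against 2.59% and 0.949% of all genes. Their median was 1.08, which was 0.93 after the correction. IFIH1, which encodes the sensor of long double-stranded RNA MDA5, was at a TPM of 4.49 and 4.31 in HCT116 shScr and 41.4 and 38.8 in UF1hypo shScr, a log2 fold change of 2.93 (SE 0.20, adjusted p = 0.000131). RIGI, the sensor of short double-stranded RNA with a 5′ triphosphate, was at 4.73 and 3.42 in HCT116 shScr and 30.2 and 23.5 in UF1hypo shScr, a change of 2.46 (SE 0.33, adjusted p = 0.00410). DHX58, a related helicase, was at 2.04 and 1.06 in HCT116 shScr and 8.32 and 7.71 in UF1hypo shScr, a change of 1.85 (SE 0.33, adjusted p = 0.0150). These 3 RNA sensors are themselves interferon-stimulated genes. The other called members were STING1, SAMHD1 and MYD88, the adaptor of Toll-like receptors, with log2 fold changes of 1.08, 1.22 and 1.23.

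Antigen presentation through MHC class I was higher as a group. Of 21 tested genes 9 were called higher and 0 lower, against 2.59% and 0.949% of all genes. All 21 had both UF1hypo libraries above both HCT116 libraries, against 29.1% of all genes. The median log2 fold change was 0.97, or 1.00 after the correction. PSMB9, a catalytic subunit of the immunoproteasome, changed most, from a TPM of 6.0 and 6.03 to 80.6 and 88.0, a log2 fold change of 3.60 (SE 0.19, adjusted p = 3.04e-05). TAP1, a subunit of the peptide transporter, went from 50.4 and 48.3 to 121 and 130.3, a change of 1.33 (SE 0.15, adjusted p = 0.00173). PSME1, a subunit of the proteasome activator PA28, went from 131 and 145 to 345 and 356, a change of 1.34 (SE 0.13, adjusted p = 0.000765). HLA-F rose by 1.62 (SE 0.22, adjusted p = 0.00435), HLA-B by 1.31 (SE 0.17, adjusted p = 0.00362) and HLA-C by 1.27 (SE 0.17, adjusted p = 0.00386), and reads of the HLA genes can be split between near-identical copies. Of 10 tested MHC class II genes 2 were called higher, against 2.59% of all genes, both at low levels. CD74, the invariant chain, was at 0.333 and 0.143 in HCT116 shScr and 1.99 and 2.84 in UF1hypo shScr, and HLA-DRA was at 0.163 and 0.887 in HCT116 shScr and 4.37 and 2.82 in UF1hypo shScr. Of 16 tested NF-kB targets and chemokines 3 were called higher, against 2.59% of all genes. They were CFB (complement factor B), LCN2 (an iron-sequestering lipocalin) and NFKBIA (the inhibitor of NF-kB), at log2 values of 4.19, 2.74 and 1.27. Of 7 tested genes known for their response to interferon gamma, GBP2 rose by 1.07 (SE 0.25, adjusted p = 0.0488), while ICAM1, an adhesion molecule, was lower at -1.33 (SE 0.25, adjusted p = 0.0184). These were the called members, against 2.59% higher and 0.949% lower over all genes. After the correction 2 of the 7 were called higher and 1 lower, and 3 of the MHC class II genes were called higher.

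Genes that DNA methylation is known to silence in somatic cells rose in part. Of 49 matched cancer-testis antigens 11 were tested and 6 were called higher, against 2.59% of all genes. A gene absent from HCT116 enters the test only through UF1hypo, which favours a higher call. The count is therefore not independent evidence of a rise, and no median is given in the text. MAGEB1 was the most abundant of the 6, at a TPM of 2.09 and 1.32 in HCT116 shScr and 33.4 and 29.6 in UF1hypo shScr, a log2 fold change of 3.60 (SE 0.25, adjusted p = 0.000135). MAGEA11 was listed at 0 in both HCT116 libraries and was at 3.50 and 3.61 in UF1hypo shScr. MAGEA12 went from 0.0131 and 0 to 2.34 and 4.40 and MAGEA9 from 0 and 0.0883 to 3.40 and 2.45, with reads that the near-identical members of the family can share. Of 8 tested germline genes, REC8, a meiotic cohesin, was called higher, at 1.70 (SE 0.30, adjusted p = 0.0152). The 10 genes of the study's own panel of hypermethylated tumour suppressors had 0 members above the TPM minimum, and the highest value in the 4 libraries was 0.81 TPM. UCHL1 and SFRP1 were listed at 0 in all 4, and LXN was listed at 0 in HCT116 shScr and at 0.630 and 0.541 in UF1hypo shScr.

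Imprinted genes moved in both directions. Of 21 tested, PEG10 and FAM50B were called higher and GRB10 and MEST lower, against 2.59% and 0.949% of all genes. The median of the list was 0.11, with 3 higher and 2 lower after the correction. PEG10, of retroviral gag origin and transcribed from the paternal allele, went from 4.54 and 3.93 to 13.8 and 12.9, a log2 fold change of 1.46 (SE 0.21, adjusted p = 0.00547). FAM50B went from 0.625 and 2.25 to 7.68 and 7.66, a change of 1.91 (SE 0.33, adjusted p = 0.0131). GRB10, an adaptor that restrains growth factor receptors, fell from 42.4 and 35.9 to 11.4 and 12.7, a change of -1.62 (SE 0.19, adjusted p = 0.00175). MEST fell from 45.7 and 37.6 to 19.5 and 17.7, a change of -1.12 (SE 0.19, adjusted p = 0.0131).

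Noncoding genes were compared as well, among them the imprinted RNA H19. In a fit of all annotated genes, 38 of 4292 noncoding genes were called higher (0.885%) and 18 lower (0.419%), of which 27 and 16 were long noncoding RNAs. H19, the imprinted long noncoding RNA transcribed from the maternal allele, was at a TPM of 2.35 and 2.68 in HCT116 shScr and 128 and 137 in UF1hypo shScr, a log2 fold change of 5.25 (SE 0.21, adjusted p = 3.24e-06). MIR4527HG was listed at 0 in both HCT116 libraries and was at 48.4 and 43.7 in UF1hypo shScr. UCA1, a long noncoding RNA first described in urothelial cancer, went from 89.1 and 73.3 to 262 and 249, a change of 1.65 (SE 0.18, adjusted p = 0.00127). AFAP1-AS1 and KRT7-AS, antisense to AFAP1 and KRT7, changed by 2.48 and 2.10, and without strand information their reads cannot be told apart from those of their sense partners. These noncoding genes were chosen after their values were seen.

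Keratins and other genes of stratified epithelium were higher in part. In the list of keratins and cornified envelope genes 11 of 23 tested were called higher and 2 lower, against 2.59% and 0.949% of all genes. The median was 1.02, which was 0.82 after the correction, where 9 were called higher. LY6D, a surface protein of stratified epithelium, went from a TPM of 0.0901 and 0.407 to 77.3 and 101.3, a log2 fold change of 6.18 (SE 0.22, adjusted p = 2.5e-06). KRT13, a keratin of internal stratified epithelia, was at 2.03 and 1.84 in HCT116 shScr and 49.5 and 56.6 in UF1hypo shScr, a change of 4.20 (SE 0.19, adjusted p = 1.22e-05). KRT7, a keratin of simple glandular epithelia that is usually absent from colon, was at 41.7 and 37.0 in HCT116 shScr and 415 and 479 in UF1hypo shScr, a change of 3.47 (SE 0.19, adjusted p = 3.04e-05). The groups stood far apart in these 3 genes. KRT80 rose by 2.64 (SE 0.21, adjusted p = 0.000245). KRT8, KRT18 and KRT19, the main keratins of colorectal cells, rose by smaller log2 values of 1.16, 1.14 and 1.02, and the summed TPM of the 6 colorectal markers was 4341 and 4396 in HCT116 shScr and 8799 and 9072 in UF1hypo shScr. After the GC and length correction KRT18 was at 0.98 (adjusted p = 9.21e-05) and KRT19 at 0.82 (adjusted p = 0.000173), both under the limit of a call, and KRT8 was still called. The 2 members called lower were DSC3, at -1.93, and SPRR2D, at 2.29 and 0.873 TPM in HCT116 shScr and listed at 0 in UF1hypo shScr.

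Of 22 tested S100 and annexin genes 4 were called higher and 0 lower, against 2.59% and 0.949% of all genes. The median of the list was 0.40, which was 0.48 after the correction. All 4 called genes sit side by side on chromosome 1. S100A4, a calcium-binding protein linked to cell motility, rose from 150.3 and 136 to 1519 and 1492 TPM, a log2 fold change of 3.39 (SE 0.17, adjusted p = 2.43e-05). S100A2 went from 19.7 and 17.9 to 132 and 137, a change of 2.78 (SE 0.22, adjusted p = 0.000208), and S100A5 and S100A3 changed by 2.25 and 1.91. Among 26 tested epithelial and mesenchymal genes 5 were called higher and 0 lower, against 2.59% and 0.949% of all genes. Their median was 0.10. TWIST1, a transcription factor that represses epithelial genes, went from 0.516 and 0.519 to 10.4 and 10.2, a change of 2.89 (SE 0.23, adjusted p = 0.000208). GRHL3 and CLDN4, which belong to the epithelial programme, rose as well, by 1.69 and 1.22. Of 11 tested members of the LY6 family 5 were called higher, against 2.59% of all genes. Among them were LYNX1, PSCA and LYPD3 at 1.67, 1.45 and 1.21. After the correction 5 were called higher as well.

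Genes of intestinal identity and of growth factor signalling were among the largest decreases. In the list of intestinal identity 5 of 18 tested genes were called lower and 2 higher, against 0.949% and 2.59% of all genes, with a median of −0.08. After the correction 4 were called lower and 2 higher, and the median was −0.03. DPEP1, a membrane dipeptidase, fell from a TPM of 82.2 and 79.7 to 2.19 and 3.40, a log2 fold change of -4.45 (SE 0.26, adjusted p = 4.65e-05). HNF4A, a nuclear receptor that maintains enterocyte genes, fell from 6.90 and 6.81 to 0.313 and 0.0545, a change of -2.74 (SE 0.28, adjusted p = 0.000979). CA2, carbonic anhydrase 2, fell from 35.9 and 41.4 to 10.7 and 6.98, a change of -2.04 (SE 0.23, adjusted p = 0.00156). The libraries of a group lay close together beside these differences, except that HNF4A is near 0 in UF1hypo. The transcription factor HNF4G changed by -1.17 (SE 0.26, adjusted p = 0.0388). The members called higher were KRT20, a keratin of mature colonocytes, at 1.96 (SE 0.23, adjusted p = 0.00188), and CEACAM1, at 1.08 (SE 0.24, adjusted p = 0.0378).

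Of 11 tested EGFR ligands and receptors 2 were called lower and 0 higher, against 0.949% and 2.59% of all genes. Both called genes encode ligands and were called lower after the correction as well. AREG, amphiregulin, fell from 1107 and 1087 to 114 and 93.8 TPM, a log2 fold change of -3.40 (SE 0.18, adjusted p = 3.04e-05). EREG, epiregulin, fell from 267 and 237 to 94.2 and 79.1, a change of -1.53 (SE 0.36, adjusted p = 0.0475). In a list of 27 genes of MAPK output 1 was called, LIF, a cytokine, which was higher at 1.32 (SE 0.19, adjusted p = 0.00575), and the median was −0.10. After the correction FOSL1 of that list was also called, as lower. MYC, a growth-promoting transcription factor, fell from 485 and 493 to 252 and 217, a change of -1.06 (SE 0.14, adjusted p = 0.00396), and NOTUM, a secreted WNT antagonist, rose by 1.43 (SE 0.20, adjusted p = 0.00501). These were the called members among 16 tested WNT targets and antagonists, of which NOTUM was called higher and NKD2 and WNT11 lower after the correction, and MYC was not. CDK6, a G1 kinase, changed by -1.75 (SE 0.26, adjusted p = 0.00629).

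The list with most genes called lower was that of the transcription factor ATF4, which drives amino acid supply under nutrient and endoplasmic reticulum stress. Of 26 tested genes 10 were called lower and 0 higher, against 0.949% lower among all genes, and the median log2 fold change was −0.87. After the GC and length correction 12 were called lower and the median was −0.93. Leaving out 1 library at a time left between 3 and 6 called lower, with the fewest without HCT116 shScr replicate 2. SLC7A11, the cystine importer, fell from a TPM of 38.7 and 31.3 to 7.09 and 5.63, a log2 fold change of -2.29 (SE 0.38, adjusted p = 0.0103). ASNS, asparagine synthetase, fell from 357 and 312 to 84.7 and 80.6, a change of -2.00 (SE 0.21, adjusted p = 0.00101). CHAC1, which degrades glutathione, fell from 77.6 and 76.0 to 16.8 and 18.1, a change of -2.08 (SE 0.16, adjusted p = 0.000208). TRIB3, a pseudokinase that feeds back on ATF4, fell from 172 and 154 to 33.9 and 41.2, a change of -2.09 (SE 0.24, adjusted p = 0.00173). The groups did not overlap in these 4 genes, but non-overlap was a condition for naming the largest changes, CHAC1 among them.

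The called members came from several arms of amino acid metabolism. PSAT1 and PHGDH of serine synthesis changed by -1.69 (SE 0.24, adjusted p = 0.00546) and -1.05 (SE 0.22, adjusted p = 0.0286). MTHFD2 of mitochondrial folate metabolism changed by -1.15 (SE 0.19, adjusted p = 0.0112), and SLC7A5, the leucine importer, changed by -1.18 (SE 0.17, adjusted p = 0.00525). DDIT4, an inhibitor of mTORC1, changed by -1.43 (SE 0.20, adjusted p = 0.00525). ATF4 itself was at 659.8 and 712 in HCT116 shScr and 342 and 345 in UF1hypo shScr, with a log2 fold change of -0.99 (SE 0.12, adjusted p = 0.00295) that lay just under the limit for a call. HSPA5 and XBP1 of the unfolded protein response had log2 fold changes of 0.08 and -0.18 with adjusted p-values of 0.792 and 0.624. The promoters of CHAC1 and ASNS are shown because each holds a match to the C/EBP-ATF response element to which ATF4 binds, searched as TGATGNAA or TTNCATCA, with the match in capitals.
CHAC1 (chr15:40953252-40953279, plus strand): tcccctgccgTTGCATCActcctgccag
ASNS (chr7:97872459-97872486, minus strand): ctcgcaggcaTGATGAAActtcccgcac
They were 2 of 9 called-lower members with a promoter entry, and the element was present in 134 of 10292 tested genes (1.30%) and in 3.19% of all 27305 promoters.

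Large sets of housekeeping and growth genes had few or no calls, and in those of replication and mitosis most genes had log2 fold changes below 0. In 34 tested genes of the MCM complex and DNA replication 0 were called, with a median of −0.30 that was −0.28 after the correction. Of these 34 genes 33 were below 0, where 44.6% of all genes tested were above 0. In 31 genes of G2/M and mitosis 0 were called, with a median of −0.49 that was −0.32 after the correction, and 29 of the 31 were below 0 and 28 had both UF1hypo libraries below both HCT116 libraries (37.2% over all genes). In the shUHRF1 pair, described below, 13 of the 31 were called lower, with a median of −1.03 (3.92% lower over all genes). CCNA2 and CDK1, which drive entry into mitosis, had log2 fold changes of -0.60 and -0.76 with adjusted p-values of 0.0789 and 0.383. With the 4 shScr libraries fitted alone the adjusted p-values were 0.0032 and 0.0049, and after the correction 0.0144 and 0.092. The 24 genes of cholesterol synthesis, 77 subunits of oxidative phosphorylation and 79 cytosolic ribosomal proteins had 0 calls, with medians of −0.05, −0.03 and −0.05. Of 391 tested KRAB-type zinc finger genes 2 were called higher and 1 lower, and of 28 HOX genes 0 were called. Of 28 tested p53 targets 2 were called higher, one of them TP53I3 at 1.39 (SE 0.16, adjusted p = 0.00188), with 3 higher and 1 lower after the correction, and of 32 genes of hypoxia and glycolysis 2 were called higher, CA9 and ENO2, of which CA9 was still called after the correction. Of 227 tested solute carriers 5 were called higher and 8 lower, and the lower set includes SLC7A11 and SLC43A1 at -2.29 and -1.51. Over all genes 2.59% were called higher and 0.949% lower with the control hairpin, the shares to set beside the counts of these lists.

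The same clone was compared with its parent in libraries that share no sample with those above, the 4 with the hairpin against UHRF1. There 1670 of 13650 tested genes were called higher and 535 lower (12.2% and 3.92%). Of the 333 genes called higher with the control hairpin 332 were tested with shUHRF1, where 271 were again called higher and 324 had the same sign. The 271 are 81.6% of those 332 and 16.2% of the 1670. Of the 122 genes called lower 120 were tested, 59 were again called lower (49.2% of the 120 and 11.03% of the 535) and 105 had the same sign. The median log2 fold change of the 333 genes was 1.48 with the control hairpin and 2.06 with shUHRF1, and that of the 122 genes was −1.31 and −0.99. Both hairpins act in the same single clone, so this repeats the measurement and not the derivation of the clone. Both comparisons were fitted over all libraries with a shared spread, so the repeated calls are not from independent tests.

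Interferon effectors were farther above HCT116 with shUHRF1 than with the control hairpin. With shUHRF1 57 of 60 tested effectors were called higher, with a median of 3.36. In HCT116 the knockdown gave the same list a median of 0.08, in a comparison that shares the HCT116 shScr libraries. IFI27 was at a TPM of 9.81 and 13.3 in HCT116 shUHRF1 and 5057 and 3470.3 in UF1hypo shUHRF1. For ISG15 the values were 282 and 256 and 10510.0 and 6329.8. Both values of HCT116 shUHRF1 were below those of UF1hypo shScr in these genes.

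The ATF4 genes had another order of groups. With shUHRF1, 3 of 26 tested genes of the list were called higher in UF1hypo and 2 lower, with a median of 0.33. CHAC1 was at 33.8 and 29.1 in HCT116 shUHRF1 and 75.2 and 68.2 in UF1hypo shUHRF1, so its difference between the lines was 1.17 there and -2.08 with the control hairpin. The knockdown in HCT116, which shares the HCT116 shScr libraries, gave CHAC1 a log2 fold change of -1.27 and TRIB3 one of -1.28. HCT116 shScr was the highest of the 4 groups in ASNS, PSAT1, PHGDH, DDIT4 and TRIB3. The state of the medium at harvest was not measured in these files, and its part in the ATF4 genes was not tested.

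Along the chromosomes the GC-corrected differences were small, apart from the long arm of the X. In windows of 50 neighbouring genes the median log2 fold change lay between −0.39 and 0.38 without correction and between −0.19 and 0.39 with it. With the correction 12 of 1183 windows had a median above 0.25, 10 of them on the X chromosome, and 0 had one below −0.25. A boundary on the long arm, just before the gene RBM41, was set after this profile was seen. The 155 tested genes from there to the end had a corrected median of 0.26, with 79.4% above 0, beside 0.03 for the 246 genes of the rest of the X and 0.00 for 12440 autosomal genes. The pairs of libraries gave 0.32 and 0.29 with the control hairpin and 0.31 and 0.32 with shUHRF1, after the median of each of 10 GC bins was removed. The same measure was −0.02 between the HCT116 shScr libraries and −0.03 between the UF1hypo shScr libraries. Without the 7 cancer-testis genes of the region the corrected median was 0.25 over 148 genes. Of the 155 genes 9 were called higher (2.59% over all genes) and 0 lower, so the shift is one of many small differences. Most genes in the stretch of the X before the boundary were above 0 as well. The boundary therefore does not mark where the shift begins, and the median of 0.03 covers unlike stretches. DNA copy number was not measured here.

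**Figure D1:**
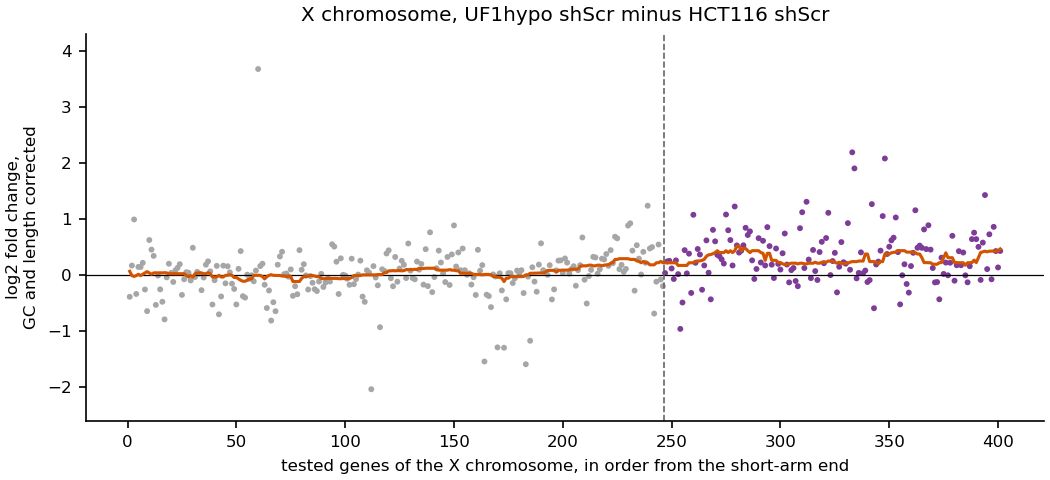
GC- and length-corrected log2 fold change of UF1hypo shScr minus HCT116 shScr for the 401 tested genes of the X chromosome, in order from the end of the short arm, with a running median in orange and genes beyond the boundary on the long arm (dashed line) in purple. The 155 purple genes have a median of 0.26, and the 246 grey genes one of 0.03. Most grey genes in the stretch before the dashed line also lie above 0.

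Of the Y chromosome, RPS4Y1, a ribosomal protein gene, was at a TPM of 4.85 and 7.08 in HCT116 shScr and listed at 0 in UF1hypo shScr, and DDX3Y, an RNA helicase gene, was at 1.32 and 0.805 and listed at 0. They were the 2 tested genes among 13 listed Y-linked genes, and the list was at 0 in both UF1hypo shUHRF1 libraries as well.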

How the data were processed

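PolyA RNA of HCT116 and UF1hypo cells with shScr or shUHRF1 was sequenced in 8 libraries, 2 a group, and harvested on a day that is not given per library. Per the study's methods and the submitters' processing notes, the authors used Fastp for trimming, HISAT2 2.0.4 for alignment to GRCh38 and StringTie 2.1.4 for gene abundances. The TPM values deposited by the authors are scaled to gene length and then to a total common to all libraries. FPKM, which the authors scaled to gene length and aligned bases, served as an alternative. The coverage deposited by the authors is the unscaled mean per base, used only to recover the aligned bases, through its ratio to FPKM (5.42 to 7.39 gigabases in the 4 shScr libraries). No read counts were given, so no count test and no counting interval was possible.

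Of 60649 gene identifiers 60463 matched GENCODE version 44, and the 19942 protein-coding ones entered the analysis. Genes with TPM above 1 in at least 1 of the 4 shScr libraries were tested on log2(TPM + 1) in limma 3.58.1 (R 4.3.3) with a variance trend, in a fit of all 8 libraries with the 4 groups as terms and 4 residual degrees of freedom. The same fit gave the shUHRF1 pair and the difference between the hairpins. The fold change on this scale understates the change of low genes, and no fold change of a single gene is given against a group listed at 0. Nothing says that the replicates were separate cultures, so p-values measure the spread between these libraries, which may be technical. Near-identical or overlapping genes (IFITM, HLA, MAGEA, KRT, histone and HSPA1 genes, TRIM5 and TRIM34) may share reads. The fit was tested on simulated data. Python 3.11.15 with pandas 2.3.3, SciPy 1.17.1 and matplotlib 3.10.9 did the rest.

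Named are UHRF1 and the methylation regulators, the 12 genes called in each direction with the largest change whose libraries do not overlap, the 8 most abundant called genes in each direction, and up to 4 members of each list. Some further members were named after their values were seen (OAS3, STAT2, HLA-B, HLA-C, HNF4G, CEACAM1, STING1, SAMHD1, PHGDH, DSC3, SPRR2D, PNPT1, DDX60L, ATF4, HSPA5, XBP1), as were the noncoding genes, RAB26, genes listed at 0 in 1 line and genes in runs. The comparison, its members and the lists were chosen with earlier results of these data known. Some genes that the rule names are not reported here. Alternatives covered the pseudocount, filters, gene sets, libraries in the fit, scaling, variance model, GC and length correction and each library left out.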

Additional observations from a re-analysis of the deposited data

Results flagged for a closer look

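The difference between UF1hypo and HCT116 itself differed between the hairpins in 115 of the 455 called genes in limma. The limits were an adjusted p below 0.05 for the difference and a log2 size above 1. Of the 115 genes 95 were called higher and 20 lower with the control hairpin. Given here are 30 of them, taken from the genes named by the rule and those called in opposite directions. MAGEA11 and MAGEA12 are left out because both HCT116 shScr libraries were under 0.1 TPM, a limit chosen after their values were seen. The value given is the log2 fold change with shScr minus that with shUHRF1. The genes were selected on the fold change with shScr, which enters this value. The selection alone favours a smaller fold change with shUHRF1, and the share over all genes is not given here. With 2 libraries a group no sample was tested for lying apart.

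In 3 genes the clone was called on opposite sides of its parent. CA9, a hypoxia-induced carbonic anhydrase, differed by 2.65 (adjusted p = 0.00928), with log2 fold changes of 1.22 with shScr and −1.42 with shUHRF1. RAB26, a small GTPase, differed by 2.55 (adjusted p = 0.00227), with 1.11 and −1.44. CHAC1 differed by −3.24 (adjusted p = 0.000208), with −2.08 and 1.17. The reasons were not tested.

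Among interferon, sensing and presentation genes the clone was farther above its parent with shUHRF1. The difference was −3.07 for IFITM1, −2.03 for OAS1, −2.20 for IFI44, −1.49 for ISG15, −1.69 for IRF7, −1.33 for IRF9, −2.28 for USP18, −3.24 for DHX58, −1.56 for IFIH1 and −1.32 for MYD88. It was −1.76 for both PSMB9 and HLA-F, −1.30 for TAP1, −2.28 for CD74 and −2.21 for CFB. The same sign was seen in KRT13 (−2.37), KRT20 (−2.98), TRIM29 (−1.58) and H2BC4 (−1.90).

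For genes called lower with shScr the difference was −2.56 for DPEP1, −1.53 for GRB10, −1.70 for ICAM1, −1.62 for SLC7A5, −2.63 for SUN3 and −2.03 for TRIB3, which were nearer to or above their parent's level with shUHRF1. S100A4 and FSTL4 were farther above the parent with the control hairpin, by 1.65 and 1.55.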

How the results depend on the processing

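The counts of 333 genes called higher and 122 called lower stayed within 1.5 times under each alternative other than leaving out a library. They ranged from 275 (no TPM filter) to 436 (library weights) for higher and from 85 (FPKM and replicate block) to 162 (6 libraries and library weights) for lower. Leaving out each of the 4 libraries in turn left 122 to 151 genes higher and 23 to 39 lower, the fewest without UF1hypo shScr replicate 2 and without HCT116 shScr replicate 1. A lone library is assumed there to vary like the other groups. The replicate numbers did not pair the samples (correlation of deviations 0.02 over 2 pairs). With the replicate block 284 genes were called higher and 85 lower. UHRF1 passed an adjusted p of 0.05 with the 4 shScr libraries alone, with 6 libraries and with library weights (log2 fold change −0.91 in each), with FPKM (−0.89) and with the GC and length correction (−0.97). With the 4 shScr libraries alone 63 noncoding genes were called higher and 54 lower. The lowest window median moved to −0.19 with the GC and length correction, which was chosen for the windows after seeing the data, as was the split of the X chromosome. Uncalled genes changed sign near 0. With the correction HMGCS1 was at 0.206, IFNAR1 at 0.0137 and MBD4 at 0.0865. Leaving out 1 library gave ranges of −0.0639 to 0.352 for DNMT3A, −0.219 to 0.0755 for HMGCS1, −0.109 to 0.001 for LIG1, −0.196 to 0.249 for MBD2, −0.362 to 0.0479 for MBD3 and −0.0156 to 0.382 for PCLAF. No called gene named here changed sign in any alternative run. Without read counts the precision of low genes is unknown.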

Other observations

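Of the 333 genes called higher 209 belonged to no gene list used here, as did 89 of the 122 called lower. The largest of them were SUSD2, a membrane protein, at a TPM of 1.35 and 2.50 in HCT116 shScr and 99.4 and 115 in UF1hypo shScr and a log2 fold change of 5.24 (SE 0.28, adjusted p = 3.04e-05), and FSTL4, at 0.109 and 0.212 in HCT116 shScr and 23.8 and 33.7 in UF1hypo shScr and 4.66 (SE 0.26, adjusted p = 3.58e-05). FOXJ1, the master transcription factor of motile cilia and the 1 called member of the list of SOX, KLF and FOX factors, went from 0.144 and 0.213 to 11.3 and 11.6, a change of 3.40 (SE 0.24, adjusted p = 0.000145). Among the genes called lower, EFNB2, a ligand of Eph receptors, fell from 38.4 and 37.4 to 7.19 and 7.05 (-2.26), SYT1, a synaptic calcium sensor, from 26.5 and 25.5 to 4.39 and 4.83 (-2.27) and PRDM1, a transcriptional repressor, from 6.28 and 6.05 to 0.884 and 0.519 (-2.08). The groups did not overlap in these 6 genes, but non-overlap was a condition for naming the largest changes and is no separate result.

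Listed at 0 in both HCT116 shScr libraries and above 1 TPM in both UF1hypo shScr libraries were 12 protein-coding genes. They include the interferon effectors APOL1 (4.79 and 4.58 TPM in UF1hypo shScr), XAF1 (8.27 and 7.37), MX2 (5.63 and 6.56) and RSAD2 (1.86 and 1.71), the cancer-testis genes MAGEA4 and MAGEA11, and NKX2-5, a cardiac transcription factor (4.52 and 4.92). The reverse held for 2 genes, RPS4Y1 and IL21R, an interleukin receptor gene at 1.36 and 1.39 in HCT116 shScr.

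Some of the genes called higher were neighbours. Runs of 3 or more, with gaps of at most 200 kilobases, numbered 22 and held 75 of the 333 genes, and no such run was found among genes called lower, which are fewer. Families of related genes made up several runs, such as IFIT2, IFIT3 and IFIT1, the apolipoproteins L APOL3, APOL2 and APOL1, the kallikreins KLK5, KLK6, KLK7, KLK10 and KLK11, and S100A5, S100A4, S100A3 and S100A2. Others joined unrelated genes, such as PSME1, IRF9 and REC8 on chromosome 14. The limits were set after seeing the data.

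The CpG content of promoters was described, with no test. The ratio of observed to expected CpG in the RefSeq promoter entry (250 bases before the start site and the first bases after it) had a median of 0.62 in 230 genes called higher, 0.77 in 105 called lower and 0.84 in 9959 tested genes that were not called. It was below 0.6 in 48.7%, 27.6% and 16.2% of these genes. The median was also 0.62 in the 181 called-higher genes outside the interferon, sensing, JAK-STAT and MHC lists. This describes sequence and not methylation.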
